A study of Mus musculus with 10 samples.

Results

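The cell cycle and DNA replication genes studied here are a list of 43 genes. A gene was measured where the array's annotation gave a probe set exactly 1 symbol equal to the gene's. This held for 42 genes with 81 probe sets, out of 12393 genes so represented on the array. The expression of Ccnb1 was not analysed here, and only its promoter was described. Of the 42 genes, 20 act in G1, at the G1/S transition or in DNA replication, and 22 act mainly in G2 and mitosis. Where a gene had several probe sets, the one with the highest mean level stood for it, and the others were used as a check. Whole lungs came from adult C57BL/6 males, 6 to 8 weeks old. Of these, 5 lungs came from mice under intermittent hypoxia, in which inspired oxygen falls and recovers repeatedly, and 5 from mice kept in normoxia. Each lung was hybridised to its own Affymetrix Mouse Genome 430A 2.0 array, and the labels list no genetic change or other agent in either group. How low the oxygen fell, and for how long, is not stated in the sources used here.

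A cell enters the cycle when D-type cyclins, made in response to growth factors, activate CDK4 and CDK6. With cyclin E and CDK2 these kinases release E2F transcription factors from the retinoblastoma protein, and E2F then turns on the genes for nucleotide supply and for the MCM helicase that opens DNA at origins. Genes for spindle assembly and chromosome separation follow in G2 and mitosis under the MYB-MuvB complex and FOXM1, and are low in resting cells. The adult lung renews itself slowly, so most of its cells are outside the cycle, and whole-lung RNA holds the cycle genes of the few dividing cells of every type. In such bulk samples, fewer cells of a type and less RNA per cell cannot be told apart.

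The promoters of the members carry known sequence motifs of these regulators, and the 2 role groups below are described in the same order. RefSeq promoters (GRCm38.p6, 250 bases before to 50 after the annotated start) were at hand for 34 of the 43 listed genes, Ccnb1 included, as 37 windows of 300 bases. Those of Aurkb, Ccna2, Ccnd1, Ccnd2, Ccne2, Kif20a, Mcm4, Stmn1 and Tpx2 were not used here. The following motifs were searched on both strands. They were the E2F core, TTNNCGC with each N being C or G, the cell cycle genes homology region (CHR), TTTGAA, and the CCAAT box bound by NF-Y. An E2F core was found in 9 of 18 G1/S and replication promoters (50%) and in 3 of 19 G2/M promoters (15.8%), against 14.5% of 12566 promoters of genes on the array and 9.57% of all 32851 promoters. A CHR was found in 1 of 18 G1/S and replication promoters (5.56%) and in 13 of 19 G2/M promoters (68.4%), against 12.9% of array promoters and 17.9% of all promoters. The CCAAT box was found in 11 (61.1%) and 17 (89.5%), against 37.1% of array promoters and 37.4% of all promoters. All 13 G2/M promoters with a CHR also held a CCAAT box, a pairing found in 5% of array promoters and 6.95% of all promoters. These matches are a description of letters in a window, without a test, and 2 windows of Ccnd3, Mcm7 and Prc1 each were counted separately.

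**Figure D1:**
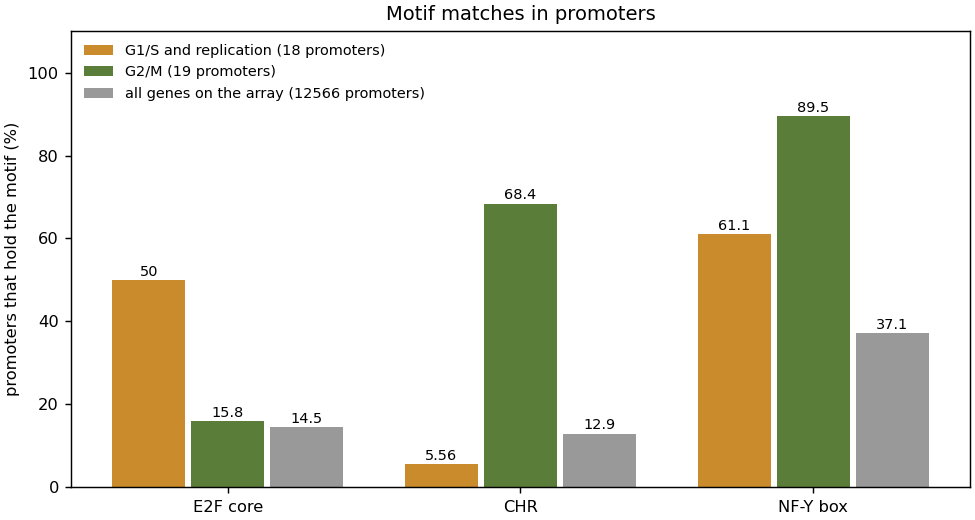
Share of promoters (%) that hold the E2F core, the CHR or the CCAAT (NF-Y) box, for 18 promoters of G1/S and replication members, 19 promoters of G2/M members and 12566 promoters of genes on the array. The E2F core stands at 50% in the first set and the CHR at 68.4% in the second, against 14.5% and 12.9% of array promoters.

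The sequences below are those of the 3 members that passed the expression test and had a promoter in the table (Cdk4, Cdk2 and Rrm2), of Mcm5 as a replication promoter with several E2F cores, and of Kif11 and Ube2c as G2/M promoters with a CHR. They read 5′ to 3′ along the gene, and capitals mark every match to the 3 motifs. Matches on opposite strands can overlap and were counted one by one.
Cdk4 (chr10:127063285-127063584, plus strand): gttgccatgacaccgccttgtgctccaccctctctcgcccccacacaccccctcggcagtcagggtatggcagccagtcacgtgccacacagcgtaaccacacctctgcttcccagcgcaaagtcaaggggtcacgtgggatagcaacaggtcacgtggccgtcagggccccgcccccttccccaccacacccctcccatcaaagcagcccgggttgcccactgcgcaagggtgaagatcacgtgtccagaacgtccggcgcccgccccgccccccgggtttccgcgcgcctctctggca
Cdk2 (chr10:128705002-128705301, minus strand): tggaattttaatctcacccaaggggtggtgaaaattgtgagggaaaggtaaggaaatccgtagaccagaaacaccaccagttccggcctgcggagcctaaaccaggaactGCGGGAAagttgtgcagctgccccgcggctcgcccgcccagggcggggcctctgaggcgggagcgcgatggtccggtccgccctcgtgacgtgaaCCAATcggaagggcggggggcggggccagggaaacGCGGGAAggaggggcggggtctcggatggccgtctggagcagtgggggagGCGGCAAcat
Rrm2 (chr12:24708004-24708303, plus strand): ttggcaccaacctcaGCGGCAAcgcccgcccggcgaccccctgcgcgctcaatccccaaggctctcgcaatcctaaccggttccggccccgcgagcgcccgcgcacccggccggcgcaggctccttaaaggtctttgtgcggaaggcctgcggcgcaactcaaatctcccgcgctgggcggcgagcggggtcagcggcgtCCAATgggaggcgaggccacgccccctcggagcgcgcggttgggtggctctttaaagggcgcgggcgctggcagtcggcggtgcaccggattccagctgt
Mcm5 (chr8:75109259-75109558, plus strand): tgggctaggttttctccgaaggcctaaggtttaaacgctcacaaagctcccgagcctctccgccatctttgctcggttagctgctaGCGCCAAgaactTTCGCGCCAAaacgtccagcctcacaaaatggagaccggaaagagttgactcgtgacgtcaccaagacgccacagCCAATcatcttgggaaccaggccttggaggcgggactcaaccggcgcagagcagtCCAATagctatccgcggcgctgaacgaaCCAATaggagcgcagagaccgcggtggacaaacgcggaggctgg
Kif11 (chr19:37376132-37376431, plus strand): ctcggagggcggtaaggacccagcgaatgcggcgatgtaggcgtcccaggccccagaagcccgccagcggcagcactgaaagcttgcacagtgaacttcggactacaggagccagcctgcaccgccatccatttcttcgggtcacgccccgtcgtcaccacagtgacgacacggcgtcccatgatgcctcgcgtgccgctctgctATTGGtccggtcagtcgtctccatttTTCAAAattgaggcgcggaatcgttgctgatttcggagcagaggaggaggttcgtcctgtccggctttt
Ube2c (chr2:164769679-164769978, plus strand): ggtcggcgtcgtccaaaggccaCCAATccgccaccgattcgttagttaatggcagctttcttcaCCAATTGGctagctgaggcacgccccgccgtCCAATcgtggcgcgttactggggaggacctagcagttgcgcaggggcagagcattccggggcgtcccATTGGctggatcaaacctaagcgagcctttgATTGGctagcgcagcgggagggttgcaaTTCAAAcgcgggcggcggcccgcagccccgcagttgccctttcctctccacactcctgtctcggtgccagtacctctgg
Cdk4 held none of the 3 motifs, which says only that these letters are not in this window. Cdk2 held 3 E2F cores, the one nearest the start beginning 10 bases before it, and Rrm2 held 1, which began 235 bases before the start. Mcm5 held 3, of which 2 overlapped. In Kif11 the CHR began 19 bases before the start and the CCAAT box 45 bases before it, and in Ube2c the CHR began 29 bases before the start with 6 CCAAT matches upstream of it.

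The arrays held log2 probe set levels, with array medians between 7.69 and 7.73 and 22626 probe sets in all. Defining lung genes were high on every array, with the alveolar type 2 gene Sftpc at 14.50 to 14.72 and the club cell gene Scgb1a1 at 14.51 to 14.64. Normoxia arrays 2, 3 and 4 stood apart, with a standard deviation over probe sets of 1.89 to 1.93 against 1.99 to 2.05 on the other 7, so results are also given without them. With limma and a Benjamini-Hochberg adjusted p below 0.05, 11.9% of probe sets passed. At the level of genes, 12.5% of 12393 passed, 8.93% higher and 3.6% lower after intermittent hypoxia. Of the probe sets that passed 71.2% were higher, and 59.1% after quantile normalization. When normoxia arrays 2 to 4 were left out, 0.0807% of genes passed. Only normoxia arrays 1 and 5 then stood against the hypoxia arrays. Calls lost in that setting, here and below, cannot be told apart from the effect of fewer arrays.

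The transcripts of Ccnd1 (cyclin D1) and of its kinase partner Cdk4 were higher after intermittent hypoxia, and Cdk2 was higher by a smaller step. The ribonucleotide reductase subunit gene Rrm2 was lower on its highest probe set, and its other probe sets did not pass. The other 16 G1/S and replication members did not pass. Ccnd1 was 1.45-fold, Cdk4 1.23-fold and Cdk2 1.19-fold its normoxia level, and Rrm2 stood at 0.775 of it. Not one of 22 G2/M members passed. Thus 4 of 20 G1/S and replication members (20%) and 0 of 22 G2/M members were called, against the 12.5% of all genes. At an unadjusted p below 0.05 the counts were 9 of 20 and 3 of 22, against 32.6% of all genes. SAM, the method named by the series' design text, called 3 and 0, against 8.09% of all genes. These shares of all genes, here and below, are not matched for signal level. Below the median level of all probe sets lay 21 of 22 G2/M members and 10 of 20 G1/S and replication members, against 41.7% of all genes. When only probe sets at or above that level were tested with limma, 20.3% of genes passed, and 2 of 10 G1/S and replication members. The median log2 difference was 0.07 over the G1/S and replication members and -0.03 over the G2/M members, against 0.01 over all genes. After quantile normalization the medians were 0.03 and 0.00, and without normoxia arrays 2 to 4 they were 0.07 and 0.02, so the sign of the G2/M median was not fixed.

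**Figure D2:**
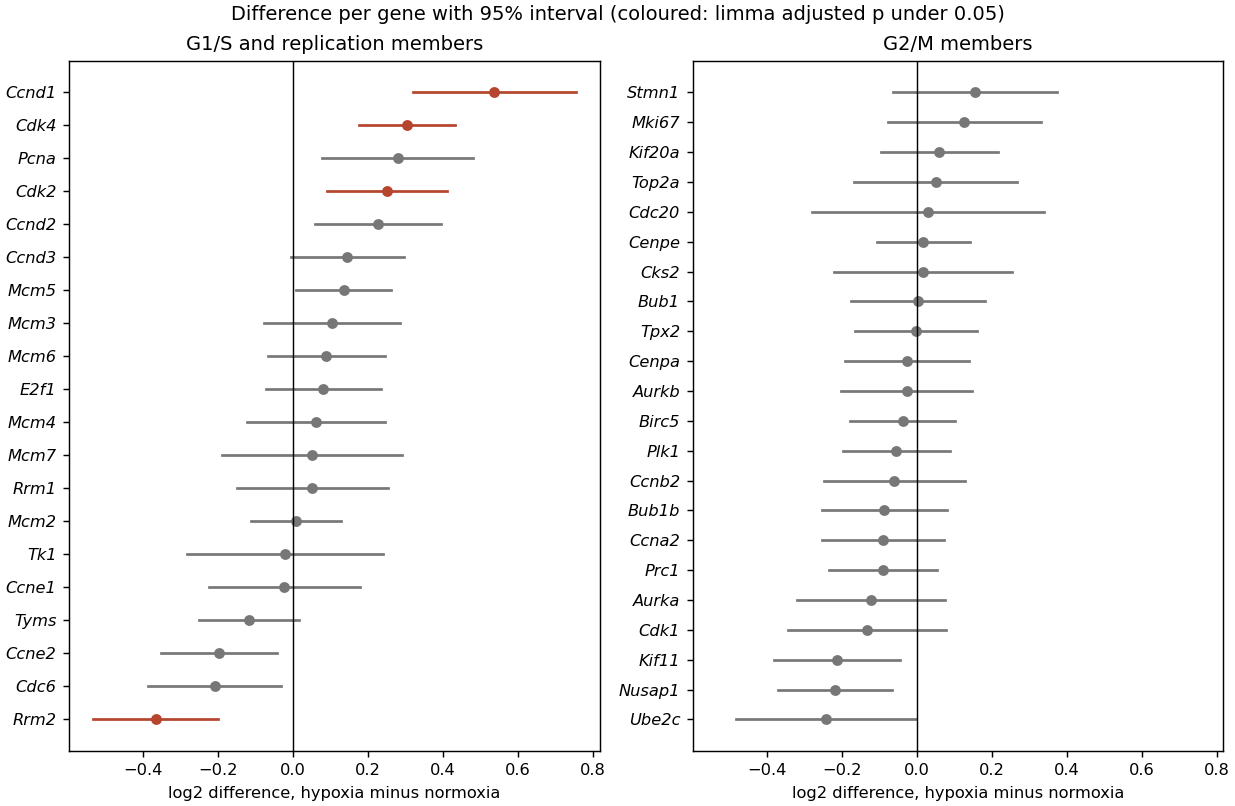
Log2 difference between intermittent hypoxia and normoxia (horizontal axis) for each of 20 G1/S and replication members on the left and 22 G2/M members on the right, with 95% intervals from limma and n = 5 arrays in each group. Colour marks a limma adjusted p below 0.05, which Ccnd1, Cdk4, Cdk2 and Rrm2 reached, and the G2/M intervals all lie within 0.5 of 0.

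Among the D-type cyclins, which link growth factor signals to the cycle, Ccnd1 differed most. Its log2 level was 11.34, 11.58, 11.47, 11.52 and 11.31 on the hypoxia arrays, against 11.19, 10.87, 10.67, 10.74 and 11.08 on the normoxia arrays. The groups did not overlap, and normoxia arrays 1 and 5 lay nearest to the hypoxia arrays. The mean was 11.44 ± 0.12 after intermittent hypoxia and 10.91 ± 0.22 in normoxia (SD, n = 5 each), a log2 difference of 0.54 (SE 0.10, limma adjusted p = 0.00929). Both other probe sets of Ccnd1 also passed as higher, by 0.39 and 0.41 on the log2 scale, with adjusted p values of 0.0115 and 0.0112. With quantile normalization the difference of Ccnd1 shrank to 0.38 and still passed (limma adjusted p = 0.00649). Leaving out normoxia arrays 2 to 4 gave a difference of 0.31 that did not pass (limma adjusted p = 0.265).

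Ccnd3 ran from 10.92 to 11.13 on the hypoxia arrays, with a median of 10.99, and from 10.78 to 11.04 on the normoxia arrays, with a median of 10.80. The groups overlapped, and the log2 difference of 0.14 (SE 0.07) gave a limma adjusted p of 0.175. Ccnd2 averaged 10.27 ± 0.08 in intermittent hypoxia and 10.04 ± 0.15 in normoxia (SD, n = 5 each), a log2 difference of 0.23 (SE 0.08) that missed the threshold (limma adjusted p = 0.0719). Its 7 probe sets differed among themselves. Another probe set passed as higher at 0.30 (adjusted p = 0.0352), 4 others differed by 0.19 to 0.32 without passing, and the last stood at -0.01. The mean over all probe sets of Ccnd2 differed by 0.22, with a limma adjusted p of 0.0459. For the highest probe set of Ccnd2, quantile normalization gave 0.09 (adjusted p = 0.309) and leaving out normoxia arrays 2 to 4 gave 0.10 (adjusted p = 0.755). Ccnd3 differed by -0.01 with quantile normalization.

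Cdk4, the catalytic partner of the D-type cyclins, was at 9.44, 9.56, 9.58, 9.53 and 9.49 on the hypoxia arrays, against 9.15, 9.27, 9.14, 9.24 and 9.30 on the normoxia arrays. All hypoxia arrays were above all normoxia arrays, with a narrow spread in both groups. The log2 difference was 0.30 (SE 0.06, limma adjusted p = 0.0107), and the other probe sets of the gene rose by 0.39 and 0.41 (adjusted p = 0.0206 and 0.0178). Quantile normalization reduced the difference of Cdk4 to 0.20, which still passed (limma adjusted p = 0.0364). On the deposited values it was 0.30 again when normoxia arrays 2 to 4 were left out, with a limma adjusted p of 0.210.

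Cdk2, the kinase of cyclin E at the G1/S transition, was at 7.48, 7.63, 7.43, 7.32 and 7.38 on the hypoxia arrays, against 7.31, 7.12, 7.30, 7.10 and 7.16 on the normoxia arrays. The groups were separated by a small gap, between hypoxia array 4 and normoxia array 1. The log2 difference of 0.25 (SE 0.07) passed with a limma adjusted p of 0.0446. Removing any one of 7 arrays (normoxia 2 to 5, hypoxia 1 to 3) ended the call, at adjusted p values up to 0.113, as did SAM (0.0564). The difference was 0.21 without normoxia arrays 2 to 4 (adjusted p = 0.489).

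The cyclins that activate CDK2 did not pass the test. Ccne1 differed by -0.02 (SE 0.09, limma adjusted p = 0.885) and Ccne2 by -0.20 (SE 0.07, adjusted p = 0.0840), which became -0.10 without normoxia arrays 2 to 4 (adjusted p = 0.776). E2f1, the transcription factor that these kinases release, averaged 6.47 ± 0.13 in intermittent hypoxia and 6.39 ± 0.07 in normoxia (SD, n = 5 each), a log2 difference of 0.08 (SE 0.07, adjusted p = 0.462).

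**Figure D3:**
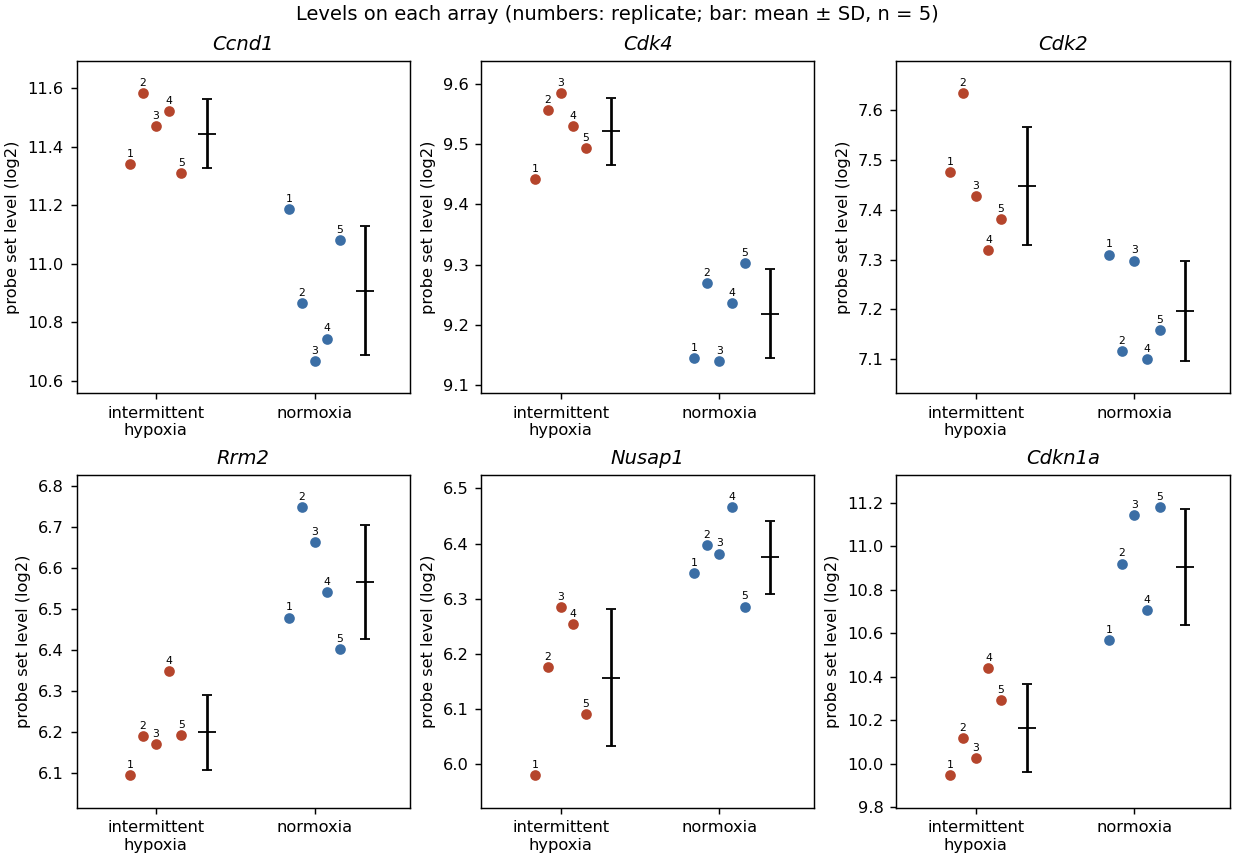
Log2 probe set level (vertical axis, a separate scale in each panel) on each array for Ccnd1, Cdk4, Cdk2, Rrm2, Nusap1 and the CDK inhibitor gene Cdkn1a, with hypoxia arrays to the left of normoxia arrays, replicate numbers beside the points, and bars for mean ± SD (n = 5 each). No panel shows an overlap of the groups, and for Ccnd1 the lowest normoxia values are those of arrays 2, 3 and 4.

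Genes that supply deoxynucleotides gave 1 call. Rrm2 encodes the small subunit of ribonucleotide reductase, whose level limits the enzyme in dividing cells. It was at 6.10, 6.19, 6.17, 6.35 and 6.19 on the hypoxia arrays, against 6.48, 6.75, 6.66, 6.54 and 6.402 on the normoxia arrays. The groups did not overlap, although hypoxia array 4 lay close to normoxia array 5, and the log2 difference was -0.37 (SE 0.08, limma adjusted p = 0.0134). The probe sets of the gene disagreed, since the other probe sets differed by 0.00 and -0.05 and neither passed. Its difference was -0.24 without normoxia arrays 2 to 4 (adjusted p = 0.346). Rrm1, the large subunit, differed by 0.05 (SE 0.09). Tyms and Tk1, which make thymidylate by the de novo and salvage routes, differed by -0.12 (SE 0.06) and -0.02 (SE 0.12), and none of these 3 passed.

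Origin licensing and the replication fork gave one gene near the threshold. Pcna, the sliding clamp of DNA polymerase, was at 10.53, 10.64, 10.66, 10.58 and 10.36 on the hypoxia arrays, against 10.39, 10.20, 10.002, 10.28 and 10.49 on the normoxia arrays. Hypoxia array 5 was below normoxia arrays 1 and 5, and the log2 difference of 0.28 (SE 0.09) had a limma adjusted p of 0.0662. It passed without normoxia array 5 (adjusted p = 0.0239) or hypoxia array 5 (0.0404). The difference of Pcna shrank to 0.12 (adjusted p = 0.237) with quantile normalization, and to 0.11 (adjusted p = 0.776) once normoxia arrays 2 to 4 were dropped. The 6 MCM helicase genes had log2 differences between 0.01 for Mcm2 and 0.13 for Mcm5, and none passed. The probe sets of Mcm3 differed in sign, at -0.37 for the lowest and 0.16 for the highest, none passing. Mcm2 was the steadiest of them, at 8.86 ± 0.07 in intermittent hypoxia and 8.86 ± 0.02 in normoxia (SD, n = 5 each), and the 95% interval of its difference ran from -0.11 to 0.13. Cdc6, which loads the helicase onto origins, was lower on every hypoxia array than on any normoxia array, at 4.65 to 5.09 against 5.11 to 5.23. Its log2 difference of -0.21 (SE 0.08) did not pass (limma adjusted p = 0.104).

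Counting members whose groups did not overlap, 3 G1/S and replication members were higher (Ccnd1, Cdk4 and Cdk2) and 2 were lower (Rrm2 and Cdc6). Among G2/M members none was higher and Nusap1 was lower. Over all genes the groups did not overlap in 8.61%, with 5.76% higher and 2.85% lower.

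**Figure D4:**
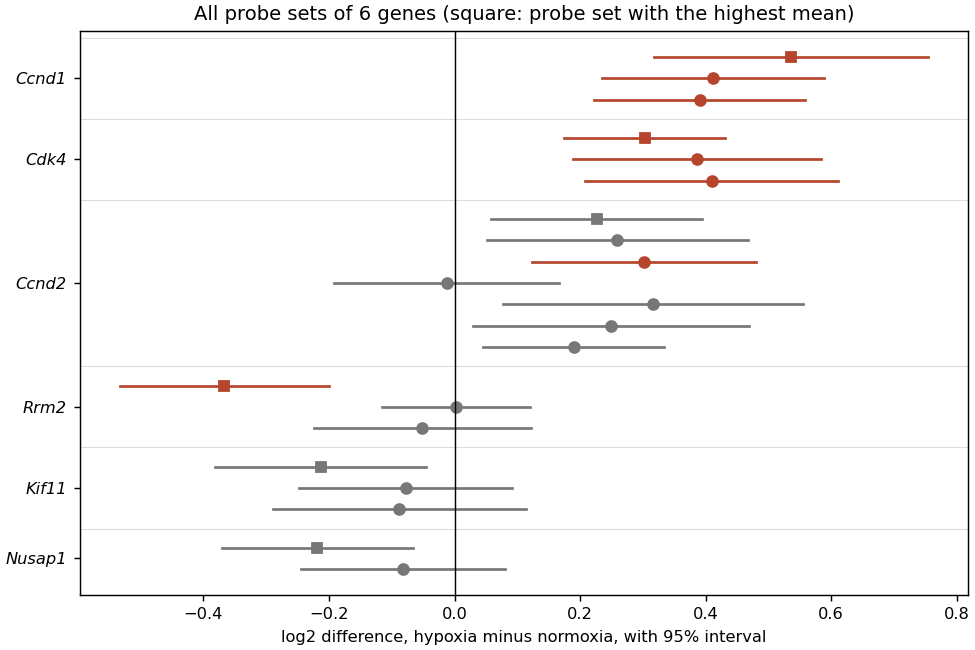
Log2 difference between intermittent hypoxia and normoxia with its 95% interval for every probe set of 6 genes, the square being the probe set with the highest mean and colour marking a limma adjusted p below 0.05. All 3 probe sets of Ccnd1 and of Cdk4 passed as higher, against 1 of 7 of Ccnd2 and 1 of 3 of Rrm2.

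The log2 differences of the G2/M members ran from -0.24 for Ube2c to 0.16 for Stmn1, 8 positive and 14 negative. For all 22 the 95% interval of the difference lay within 0.5 on the log2 scale, as it did for 84.0% of all genes, and the interval reaching farthest, that of Ube2c, ended at -0.48. The signal of these probe sets was low, and the intervals bound differences in that signal. The mean level was below the median of all probe sets in 21 of 22 G2/M members, in 10 of 20 G1/S and replication members and in 41.7% of all genes. Of 13 other probe sets of G2/M members none passed, and neither did SAM call any of the 22.

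The cyclin-dependent kinase of mitosis and its partners did not pass. Cdk1 was at 6.72, 6.96, 6.87, 6.98 and 6.67 on the hypoxia arrays, against 6.72, 7.10, 7.03, 7.19 and 6.82 on the normoxia arrays. The values interleaved, and the log2 difference was -0.13 (SE 0.10, limma adjusted p = 0.371). Ccna2, the cyclin of S phase and G2, was at 7.31, 7.30, 7.17, 7.48 and 7.21 on the hypoxia arrays, against 7.33, 7.49, 7.48, 7.39 and 7.23 on the normoxia arrays, and differed by -0.09 (SE 0.08). Ccnb2 differed by -0.06 (SE 0.09) and Cks2, a small CDK-binding protein, by 0.02 (SE 0.11). Without normoxia arrays 2 to 4 the differences of Cdk1, Ccna2 and Ccnb2 turned positive, at 0.07, 0.02 and 0.07.

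Of the spindle genes among the G2/M members none passed. Nusap1, which bundles spindle microtubules, was at 5.98, 6.18, 6.28, 6.25 and 6.09 on the hypoxia arrays, against 6.35, 6.397, 6.38, 6.47 and 6.29 on the normoxia arrays. The groups stood just apart, by 6.28 on hypoxia array 3 against 6.29 on normoxia array 5, and the log2 difference of -0.22 (SE 0.07) missed the threshold (limma adjusted p = 0.0593). It passed without normoxia array 5 (adjusted p = 0.0384) and with array weights (0.0412), and its other probe set differed by -0.08. Its difference was -0.16 when normoxia arrays 2 to 4 were left out (adjusted p = 0.640). Kif11, the motor that pushes spindle poles apart, was at 6.52, 6.11, 6.37, 6.36 and 6.397 on the hypoxia arrays, against 6.53, 6.56, 6.65, 6.64 and 6.45 on the normoxia arrays. Only hypoxia array 1 reached into the normoxia range, and the log2 difference was -0.21 (SE 0.08, limma adjusted p = 0.0863). The other probe sets of Kif11 differed by -0.08 and -0.09, and the first gave -0.14 without normoxia arrays 2 to 4. Prc1 and Tpx2, further spindle proteins, differed by -0.09 (SE 0.07) and 0.00 (SE 0.08), and the motor gene Kif20a by 0.06 (SE 0.07).

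Stmn1, which destabilises microtubules and is also made outside the cycle, had the strongest signal of the set. It was at 11.46, 11.61, 11.72, 11.83 and 11.62 on the hypoxia arrays, against 11.49, 11.60, 11.25, 11.34 and 11.78 on the normoxia arrays. The ranges overlapped, and the log2 difference was 0.16 (SE 0.10, limma adjusted p = 0.309). The difference of Stmn1 was 0.01 without normoxia arrays 2 to 4 and -0.01 with quantile normalization.

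Genes of the anaphase-promoting complex and the spindle checkpoint did not pass. Ube2c, its ubiquitin-conjugating enzyme, was at 6.97, 6.82, 6.69, 6.86 and 6.77 on the hypoxia arrays, against 6.63, 7.26, 7.02, 7.26 and 7.16 on the normoxia arrays. Normoxia array 1 was the lowest of all, and the log2 difference of -0.24 (SE 0.11) had a limma adjusted p of 0.155. Leaving out normoxia array 1, Ube2c passed as lower, by 0.35 on the log2 scale (adjusted p = 0.0154), and without normoxia arrays 2 to 4 the difference was -0.07. Cdc20, which activates the complex, was at 7.15, 7.07, 7.78, 7.13 and 7.06 on the hypoxia arrays, against 6.92, 7.35, 7.38, 7.39 and 6.997 on the normoxia arrays. Hypoxia array 3 stood high by itself, and the difference was 0.03 (SE 0.14), or 0.28 without normoxia arrays 2 to 4 (adjusted p = 0.664). The spindle checkpoint kinase genes Bub1 and Bub1b differed by 0.00 (SE 0.08) and -0.09 (SE 0.08).

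The remaining mitotic members did not pass. Mki67, the usual marker of cycling cells, averaged 6.63 ± 0.15 in intermittent hypoxia and 6.51 ± 0.18 in normoxia (SD, n = 5 each), a log2 difference of 0.13 with a 95% interval from -0.08 to 0.33. Top2a, which untangles sister DNA, averaged 6.50 ± 0.16 and 6.44 ± 0.19 in the same order, with an interval from -0.17 to 0.27. The mitotic kinase genes Plk1, Aurka and Aurkb differed by -0.05 (SE 0.07), -0.12 (SE 0.09) and -0.03 (SE 0.08). The centromere genes Cenpa and Cenpe differed by -0.03 (SE 0.08) and 0.02 (SE 0.06), and Birc5, the survivin subunit of the chromosomal passenger complex, by -0.04 (SE 0.06). These intervals bound differences in array signal and do not show that the levels were equal. Mean levels over all arrays were as low as 4.44 for Cenpe and 5.67 for Birc5, while the lowest value on any array was 3.99. Whether signal this low follows transcript changes in full was not tested.

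Of 10 CDK inhibitor and retinoblastoma family genes 1 fell and 1 rose (20%, against 12.5% of all genes), with a median log2 difference of 0.06. Cdkn1a, which encodes the CDK inhibitor p21, was at 9.95, 10.12, 10.03, 10.44 and 10.29 on the hypoxia arrays, against 10.57, 10.92, 11.15, 10.71 and 11.18 on the normoxia arrays. The groups did not overlap, and its log2 level fell by 0.74 (SE 0.13), at a limma adjusted p of 0.00697, to 0.599 of its normoxia level. Its other probe set differed by -0.13 and did not pass (adjusted p = 0.344). With normoxia arrays 2 to 4 left out the difference was -0.71 (adjusted p = 0.167). Cdkn2b, which encodes the CDK4 inhibitor p15, was at 10.56, 10.60, 10.19, 10.001 and 10.25 on the hypoxia arrays, against 10.09, 9.90, 9.33, 9.45 and 9.82 on the normoxia arrays. Hypoxia array 4 was below normoxia array 1, and Cdkn2b rose by 0.60 (SE 0.15, limma adjusted p = 0.0259). That call was lost without normoxia array 3 or 4 or hypoxia array 1 or 2, at adjusted p values up to 0.0721, and with SAM (0.0547). Without normoxia arrays 2 to 4 together the difference was 0.36 (adjusted p = 0.469).

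Of 10 listed p53 targets, 1 rose and 1 fell (20%, against 12.5% of all genes), with a median of 0.03. The medians of the inhibitor list and of this one were -0.09 and -0.06 without normoxia arrays 2 to 4. Plk2, a polo-like kinase of G1 cells, was at 9.99, 10.13, 9.98, 9.94 and 9.96 on the hypoxia arrays, against 9.60, 8.998, 9.32, 9.19 and 9.66 on the normoxia arrays. It rose by 0.65 (SE 0.11, limma adjusted p = 0.00721), with no overlap, and differed by 0.37 without normoxia arrays 2 to 4 (adjusted p = 0.141). Trp53inp1, a p53-induced stress protein, fell by 0.36 (SE 0.08, limma adjusted p = 0.0135), and its other probe set fell by 0.31 (adjusted p = 0.0336). Its difference without normoxia arrays 2 to 4 was -0.46 (adjusted p = 0.137).

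None of the measured transcription factor genes listed for these waves, activators and repressors alike, passed the test. Of 12 measured genes of the E2F, DP, DREAM and MYB-MuvB factors, Myc and Mycn included, none was called by limma or SAM. These calls covered 12.5% and 8.09% of all genes. An unadjusted p below 0.05 was found for 3 of the 12, against 32.6% of all genes, and the median was -0.04. E2f2, E2f7, Tfdp2, Lin52 and Lin54 were not measured. Foxm1, the activator of G2/M genes, differed by -0.26 (SE 0.09, limma adjusted p = 0.0785) and passed as lower without normoxia array 5 (0.0450) and with array weights (0.0367), while SAM gave 0.107. Other probe sets of Foxm1 differed by -0.18, -0.15 and -0.06, none passing. E2f8, a repressor of the E2F family, differed by -0.29 (SE 0.12, adjusted p = 0.127), and passed without normoxia array 1 (0.0463). When normoxia arrays 2 to 4 were left out, Foxm1 differed by -0.14 (adjusted p = 0.744) and E2f8 by -0.02 (0.974).

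Further genes of replication and mitosis were taken from lists set by role. Of 36 other replication genes 1 rose, 1 fell and 34 did not pass (5.56% called, against 12.5% of all genes), with a median of -0.03. Rfc1, the large subunit of the clamp loader, rose by 0.26 (SE 0.08, limma adjusted p = 0.0426) and the origin factor gene Mcm10 fell by 0.29 (SE 0.09, adjusted p = 0.0477). For each, leaving out any one of 7 arrays ended the call, at adjusted p values up to 0.103 for Rfc1 and 0.114 for Mcm10, and other probe sets of both differed by 0.02 or less. Of 36 other mitosis genes 2 rose, 1 fell and 33 did not pass (8.33% called, against 12.5%). Their median was -0.09, with 26 negative and 10 positive, and it was 0.01 without normoxia arrays 2 to 4. Cks1b, which helps SKP2 mark the inhibitor p27 for destruction, rose by 0.35 (SE 0.09, adjusted p = 0.0289). Smc4, a condensin subunit, rose by 0.28 (SE 0.08, adjusted p = 0.0414), and Incenp, the scaffold of the passenger complex, fell by 0.29 (SE 0.08, adjusted p = 0.0327). Other probe sets differed by -0.02 for Cks1b, by 0.11 and 0.16 for Smc4 and by -0.24 and 0.02 for Incenp, none passing. The call of Cks1b ended when any one of 6 arrays was left out, and those of Smc4 and Incenp with any one of 7. Quantile normalization ended the calls of Rfc1 (0.0645), Mcm10 (0.0528), Cks1b (0.0596) and Smc4, whose difference was then 0.14 (0.156), and SAM also ended all 4. None of the 5 passed without normoxia arrays 2 to 4.

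The lists were also followed array by array, as the median of the members' levels after each gene was centred on its mean over the 10 arrays. For the G1/S and replication members this median was 0.04, 0.15, 0.00, 0.06 and -0.04 on the hypoxia arrays, against -0.02, -0.02, -0.10, 0.00 and -0.01 on the normoxia arrays. For the G2/M members it was -0.04, -0.03, 0.00, 0.06 and -0.09, against -0.07, 0.12, 0.04, 0.02 and 0.02. Both lists overlapped between the groups. The other mitosis genes were highest on normoxia arrays 2, 3 and 4, at 0.06, 0.14 and 0.06, while the other 7 arrays lay between -0.06 and -0.01.

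**Figure D5:**
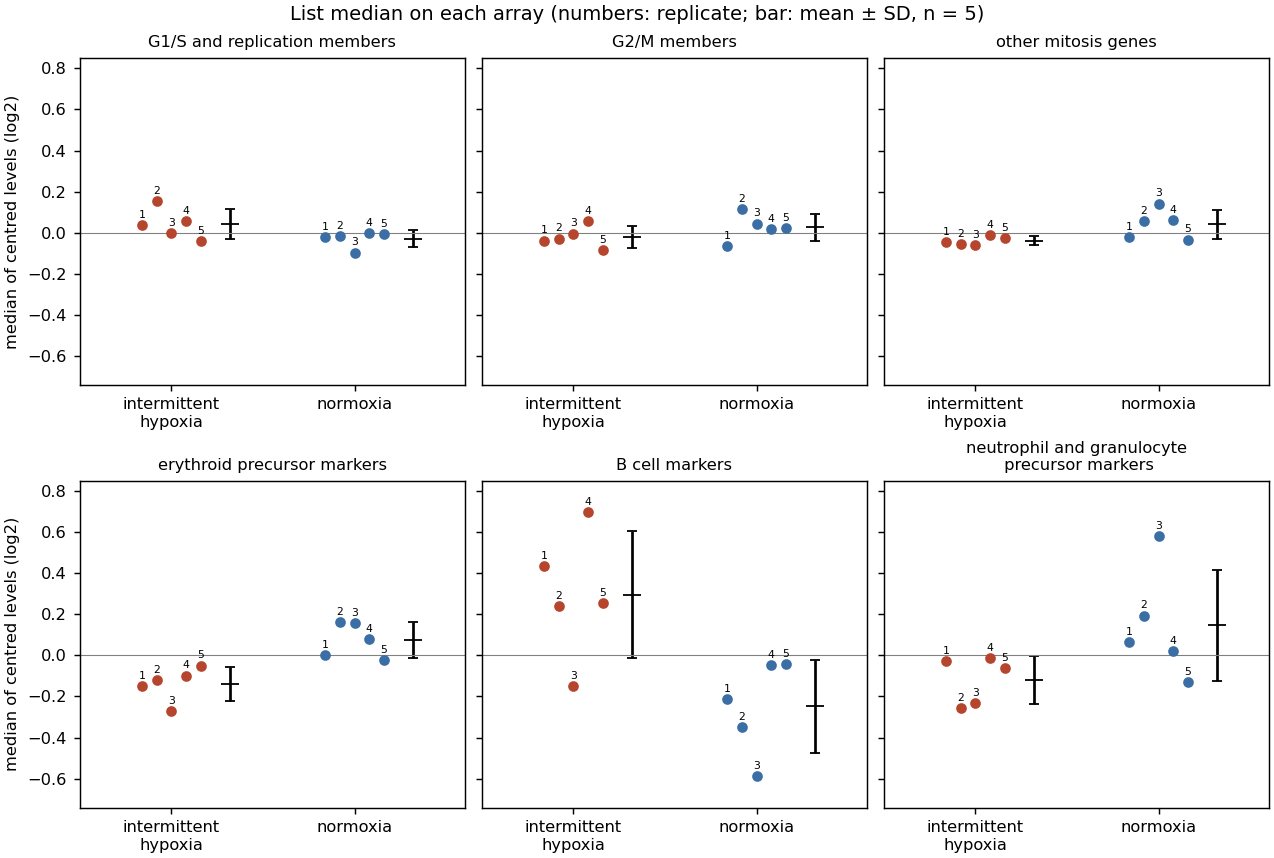
Median over a list's genes of the log2 level centred per gene (vertical axis, one scale for all panels), on each array, hypoxia arrays to the left of normoxia arrays, with replicate numbers and bars for mean ± SD (n = 5 each). The G1/S and G2/M lists stay between -0.10 and 0.15 in both groups, while the B cell list runs from -0.15 to 0.70 in intermittent hypoxia and from -0.59 to -0.04 in normoxia.

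Markers of blood-forming and immune cells moved between the groups, and their part in the results above was not tested. The counts below stand against 3.6% of all genes lower and 8.93% higher. Of 11 erythroid precursor markers 2 fell and none rose, with a median of -0.20. Their summed level on the linear scale was 3005 to 3603 in intermittent hypoxia, against 3633 to 6265 in normoxia, so the groups did not overlap. The anion exchanger gene Slc4a1 fell by 1.03 (SE 0.15) and Trim10 by 0.40 (SE 0.08), with limma adjusted p values of 0.00409 and 0.0136. Without normoxia arrays 2 to 4 Slc4a1 still passed, at -1.15 (adjusted p = 0.0156), and Trim10 did not, at -0.25. Of 11 neutrophil and granulocyte precursor markers 2 fell, Ltf by 1.19 (SE 0.24) and Mmp8 by 0.49 (SE 0.14), with a list median of -0.20. Their summed level was 3680 to 5884 in intermittent hypoxia, against 3431 to 9066 in normoxia, and none of them passed without normoxia arrays 2 to 4. On normoxia array 3 the centred median of this list was 0.58 and that of the other mitosis genes 0.14, the highest value of each.

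The lymphocyte and macrophage lists had higher calls and no lower ones, and their summed levels overlapped between the groups. Of 9 B cell markers 5 rose, with Blk at 0.54 (SE 0.09) and Cd79a at 1.01 (SE 0.20), and their summed level was 3710 to 6897 in intermittent hypoxia, against 2407 to 3862 in normoxia. Of 10 T and NK cell markers 4 rose, with Cd3d at 0.49 (SE 0.09) and Cd3g at 0.51 (SE 0.14), at summed levels of 1865 to 2249 against 1693 to 2072 in normoxia. Of 9 macrophage and monocyte markers 3 rose, among them Cd68 at 0.74 (SE 0.13) and Ccr2 at 0.60 (SE 0.14), at summed levels of 8086 to 12676 against 7594 to 8856 in normoxia. None of these markers passed without normoxia arrays 2 to 4, where the list medians were 0.48, 0.19 and 0.34 against 0.54, 0.21 and 0.36 over all arrays. The table has no value at 0, its lowest being 3.99 on the log2 scale, so no marker could be called absent.

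Of the resident cells, 1 of 10 endothelial markers rose (Emcn, by 1.03, SE 0.08), while Pecam1 differed by 0.42 (SE 0.14) without passing. Of 8 fibroblast markers 2 rose, Col1a1 by 0.80 (SE 0.12) and Col1a2 by 0.45 (SE 0.09). Of 11 alveolar epithelial markers 1 rose, Aqp5 by 0.53 (SE 0.10), while Ager differed by 0.18 (SE 0.08). None of 6 airway markers was called by limma or had an unadjusted p below 0.05, the smallest p values being those of Foxj1 (-0.25, SE 0.12) and Scgb3a2 (-0.13, SE 0.07). In the same order, summed levels in intermittent hypoxia were 25120 to 28744, 19425 to 21822, 111190 to 133215 and 58786 to 64772. In normoxia they were 20529 to 28412 for the endothelial list, 15172 to 21461 for the fibroblast list, 109366 to 129842 for the alveolar list and 60449 to 66641 for the airway list. Each of these 4 ranges overlapped between the groups. The median log2 differences of the lists were 0.18 (endothelial), 0.18 (fibroblast), 0.07 (alveolar) and -0.04 (airway). In the same order they were -0.05, 0.09, -0.03 and -0.13 when normoxia arrays 2 to 4 were left out. Without normoxia arrays 2 to 4 Emcn passed, at 0.91 (adjusted p = 0.00775), and no other marker of these 4 lists did.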

How the data were processed

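Total RNA of 10 whole lungs was measured on Affymetrix 430A 2.0 arrays, 5 after intermittent hypoxia and 5 in normoxia. The authors deposited log2 levels, 1 per probe set and array. The submitters' processing notes list RMA and affy and give neither a version nor settings. The spread of values differed between arrays, so whether all arrays were normalized together is uncertain. No filter was set, so all 22626 probe sets entered the test. The annotation table gave 1 symbol to 20380, several to 691 and none to 1555. The number of arrays limits the precision.

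The test was limma's, two-sided (limma 3.58.1 in R 4.3.3, lmFit then eBayes). Its p-values were adjusted by Benjamini-Hochberg across the whole array and called below 0.05. Intervals are 95% intervals of the moderated difference. The design text describes the arrays as separate animals. The spread behind the p-values therefore holds differences between animals together with those between arrays and their processing. Summed levels are sums of 2 to the power of the log2 level over a list's genes. The members, the lists of related genes and of cell type markers, the motifs and the alternatives were chosen with earlier results of these data known. Genes outside the member list were named by a fixed rule, those that passed or else the 2 with the smallest p of each related list, and the 2 with the smallest p of each marker list. Alternatives were SAM with 100 permutations and no estimate of the share of unchanged probe sets, quantile normalization, median centring, a filter at the median level, trended and robust eBayes, array weights, a replicate block, an adjusted p below 0.10, averaging all probe sets per gene, leaving out each array in turn, and leaving out normoxia arrays 2 to 4 together. The fits were tested on simulated data with known differences. At a log2 difference of 0.3 limma and SAM each recovered 22% of changed probe sets, and at 1 they recovered 96% and 97%. Of their calls 7.81% and 8.46% were false. A member that did not pass can thus still differ by 0.3. Sizes between 0.3 and 1 were not simulated, so no upper limit for such a member follows. Limma called 128 simulated probe sets, far fewer than in the real data, so the shares recovered here can differ. Promoters are those of RefSeq (GRCm38.p6). Replicate numbers were not treated as pairs.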

Additional observations from a re-analysis of the deposited data

Results flagged for a closer look

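Among 53 genes in 2 groups of 5 arrays, 106 sets of values in all, 5 had an array whose gap to the nearest other took up more of the group's range than Dixon's 95% critical value allows. Chance flags about 1 in 20 such groups, and all 5 fell among the hypoxia arrays. Hypoxia array 2 was high for Ccne1, at 6.29 against 5.78 to 5.89 on the other hypoxia arrays. Hypoxia array 2 was also low for Aurkb, at 5.52 against 5.83 to 5.88, and high for Plk2, at 10.13 against 9.94 to 9.99. Cdc6 was low on hypoxia array 1, at 4.65 against 5.00 to 5.09. Cdc20 was high on hypoxia array 3, at 7.78 against 7.06 to 7.15, while its 2 other probe sets differed between the groups by 0.12 and -0.07 on the log2 scale.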

How the results depend on the processing

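Of 809 recomputed member values, 779 kept their direction and their side of the threshold where a direction was called, 16 lost a call, 14 gained one and none reversed. Ccnd1 and Cdk4 passed under each alternative run, single arrays left out included, except the removal of normoxia arrays 2, 3 and 4 together. Rrm2 lost its call there and when its probe sets were averaged (adjusted p = 0.0870). Cdk2 also missed the threshold with median centring (0.0503), trended and robust eBayes (0.0516) and the replicate block (0.0724). An uncalled sign changed for 21 members under at least 1 alternative. The number of probe sets called, 2699, became 4132 with array weights, 1748 with SAM, 1755 with the replicate block, 4954 at an adjusted p below 0.10, 16 without normoxia arrays 2 to 4 and 1003 to 4800 when 1 array was left out. It moved by over 1.5 times without normoxia array 2 (1341), 3 (1123) or 4 (1003) or hypoxia array 1 (1265), 2 (1383), 3 (1371) or 4 (1714), and to 4800 without normoxia array 5. The 4 called G1/S and replication members became 2 under the filter at the median level, which left 10 of them to test (20.3% of all genes passed there). They became 6 with array weights (18.8% of all genes) and 7 at an adjusted p below 0.10 (22.8% of all genes). Without normoxia arrays 2 to 4 there were 0 (0.0807% of all genes). When 1 array was left out there were 3 to 5 (4.53% to 22.1% of all genes). The 0 called G2/M members became 1 with array weights and 2 at an adjusted p below 0.10, against the same 18.8% and 22.8% of all genes. When 1 array was left out the count was 0 to 1. The called member was Ube2c without normoxia array 1 (16.5% of all genes passed there) and Nusap1 without normoxia array 5 (22.1%). The G2/M median became 0.16 with the filter at the median level, which left only Stmn1. Deviations of same-numbered arrays correlated at -0.24 to 0.22, and 4 of 10 arrays correlated best with their own number, so the replicate block is given only here. The list counts without normoxia arrays 2 to 4 and with SAM, and the list medians, were added after seeing the data. Averaging probe sets per gene gives no count of probe sets. Of 22 G2/M members, 21 lay below the median level. The cause of these changes was not tested.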
